A study of Homo sapiens with 18 samples.

Results

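The genes described here are NFE2L2, which encodes the transcription factor NRF2, and 8 genes of the antioxidant defence that are commonly counted among its targets, NQO1, HMOX1, GCLM, GCLC, TXNRD1, SRXN1, SOD2 and GPX1. They were chosen by name and matched by gene symbol, and all 9 were found among the 57500 genes of the table. All 9 also passed the filter on low counts that left 16994 genes for testing.

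NRF2 is held at a low level in resting cells by KEAP1, which hands it to a ubiquitin ligase for degradation. Oxidants and electrophiles modify KEAP1, NRF2 then accumulates, pairs with a small MAF protein and binds antioxidant response elements near its target genes. The targets make and recycle glutathione and thioredoxin, reduce quinones and degrade haem. Since NRF2 is governed largely through protein stability, the level of NFE2L2 mRNA is not a measure of NRF2 activity. SOD2, the superoxide dismutase of the mitochondrial matrix, is also a well-known NF-κB target.

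The 18 libraries of polyadenylated RNA came from IMR90 human lung fibroblasts and formed 6 groups of 3. In all groups the cells carried the same overexpressed transgene and were kept at 3% oxygen. Prol cells were proliferating, and Sen (IR) cells were made senescent with 20 Gy of X-rays and collected on day 12. Sen (IR) + CCCP cells received the uncoupler CCCP for 48 h from day 1, which makes cells with this transgene remove their mitochondria by mitophagy. These mitochondria-depleted cells were also given 20 mM acetate from day 3, mtDNA by transfection on day 10, or both agents together, the last group being called the combination here. The study used them to ask which products of mitochondria sustain gene expression in senescent cells. The model is 1 cell line with a transgene, the study describes its replicates as independent experiments, and p-values measure the spread between these samples.

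The libraries held between 24624886 and 46224280 counts, and the 9 genes had between 46 and 122422 counts in each library. The 13 protein-coding mtDNA genes took 1.75% to 2.89% of the counts in Prol and Sen (IR) and 0.0461% to 0.237% in the 4 CCCP groups. In Sen (IR) over Prol the proliferation gene MKI67 fell by 1.95, LMNB1 fell by 1.49 and CDKN1A rose by 0.50 on the log2 scale. In Sen (IR) + CCCP over Sen (IR) MKI67 rose by 1.00 and LMNB1 by 0.64, while CDKN1A also rose, by 0.15. The 9 fibroblast markers summed to between 20703 and 41350 CPM in Prol and Sen (IR) and to between 5174 and 7107 CPM in the CCCP groups. The single markers varied unequally over the 18 libraries: COL1A1 ran from 515 to 16619 CPM, and VIM from 2784 to 4795 CPM. No epithelial, endothelial or immune list summed to more than 3.36 CPM. Among these markers KRT5, KRT14 and CD3E had at most 3 counts in a library, while EPCAM reached 129 and CD68 reached 71. In pairs of replicates, Sen (IR) replicate 3 and combination replicate 2 stood apart from the others of their groups (chi-square per gene 22.2 to 28.4, against 2.78 to 7.74 in the other pairs), and the latter also had the highest mtDNA share of the CCCP groups. In bulk samples, fewer cells that express a gene and less RNA per cell cannot be told apart.

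The promoters below are those of NQO1, the gene with the largest rise with acetate, and of the 2 genes among the 9 in which the core of the antioxidant response element was found. The core was searched as TGACNNNGC on both strands in the 250 bases before each transcription start (RefSeq, GRCh38.p14), 5′ to 3′ along the gene, and the match is in capitals.
GCLM, chr1:93909431-93909680, minus strand: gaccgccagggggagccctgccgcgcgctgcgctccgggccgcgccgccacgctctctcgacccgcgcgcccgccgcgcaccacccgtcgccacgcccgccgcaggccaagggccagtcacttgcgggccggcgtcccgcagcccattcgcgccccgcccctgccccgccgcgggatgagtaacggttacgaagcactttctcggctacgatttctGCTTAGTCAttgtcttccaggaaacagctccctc
TXNRD1, upstream start, chr12:104215529-104215778, plus strand: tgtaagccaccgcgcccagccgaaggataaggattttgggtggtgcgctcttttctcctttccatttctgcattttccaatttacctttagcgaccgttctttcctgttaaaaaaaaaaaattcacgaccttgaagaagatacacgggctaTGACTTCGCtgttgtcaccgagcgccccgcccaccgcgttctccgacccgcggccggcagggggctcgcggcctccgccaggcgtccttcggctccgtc
TXNRD1, downstream start, chr12:104286782-104287031, plus strand: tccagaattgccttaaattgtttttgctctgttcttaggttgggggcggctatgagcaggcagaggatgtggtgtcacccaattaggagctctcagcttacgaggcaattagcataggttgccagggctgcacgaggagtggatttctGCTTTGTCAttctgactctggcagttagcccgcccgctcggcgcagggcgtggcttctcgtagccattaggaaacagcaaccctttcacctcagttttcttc
NQO1, chr16:69726561-69726810, minus strand: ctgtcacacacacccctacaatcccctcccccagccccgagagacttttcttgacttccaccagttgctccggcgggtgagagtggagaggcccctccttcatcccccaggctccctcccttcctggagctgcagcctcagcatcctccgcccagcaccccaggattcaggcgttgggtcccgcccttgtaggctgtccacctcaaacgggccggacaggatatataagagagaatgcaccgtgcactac

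The GCLM match reads TGACTAAGC on the reverse strand and begins 34 bases before the start. The upstream TXNRD1 start has TGACTTCGC on the forward strand from 99 bases before it, and the downstream start has TGACAAAGC on the reverse strand from 102 bases before it. The NQO1 window held none of these letters, which says nothing of the bases outside it. Of the 9 genes, 8 had 1 or more windows in the table, HMOX1 being the other, and 3 of their 13 windows held the core (23.1%). Of all 35116 windows, 3830 held it (10.9%), and of the 34 windows of the other NRF2 targets described later, 11 held it (32.4%). The core can overlap the AP-1 site TGACTCA, which none of the 3 matches printed here contained.

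The genes lie on 8 chromosomes, with GCLC and SOD2 both on chromosome 6 (GRCh38, GENCODE v44). NFE2L2 spans chr2:177218667-177392756, NQO1 chr16:69706996-69726668, HMOX1 chr22:35380361-35394214, GCLM chr1:93885199-93909456 and GCLC chr6:53497341-53616970. TXNRD1 spans chr12:104215779-104350307, SRXN1 chr20:646615-653200, SOD2 chr6:159669069-159762529 and GPX1 chr3:49357174-49358605. HMOX1 and TXNRD1 are on the plus strand and the rest on the minus strand. TXNRD1 and GPX1 are annotated as selenoproteins.

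Some counts are less certain than others. SRXN1 shares 90.7% of its exonic bases with a protein-coding gene model on the same strand, which had at most 9 counts in a library, so the level of SRXN1, at 46 to 494 counts, is uncertain. NFE2L2 shares 23.4% of its exonic bases with HNRNPA3 on the opposite strand, and whether these libraries were counted by strand is not stated. GPX1 shares 39.9% with a same-strand gene model that is not among the counted genes.

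Corrected for gene length, the order of the genes differed between groups. In TPM, which the authors corrected for gene length, GPX1 was the highest of the 9 in Prol at 277 ± 6.21 (SD, n = 3), followed by TXNRD1 at 219 ± 5.57, SOD2 at 147 ± 1.5 and NFE2L2 at 119 ± 3.79. HMOX1 at 3.70 ± 0.396 and SRXN1 at 2.44 ± 0.596 TPM were the lowest in Prol. These ranks depend on the length assigned to each gene. In CPM, which has no such correction, SOD2 at 739 ± 7.05 was above GPX1 at 105 ± 1.04 in Prol. In Sen (IR), TXNRD1 at 575 ± 12.1 and SOD2 at 552 ± 30.7 TPM led. In Sen (IR) + CCCP + acetate, TXNRD1 reached 1959 ± 64.2 and NQO1 1295 ± 30.1 TPM, above GPX1 at 433 ± 19.2. HMOX1 stayed between 3.25 and 21.6 TPM in every library.

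**Figure D1:**
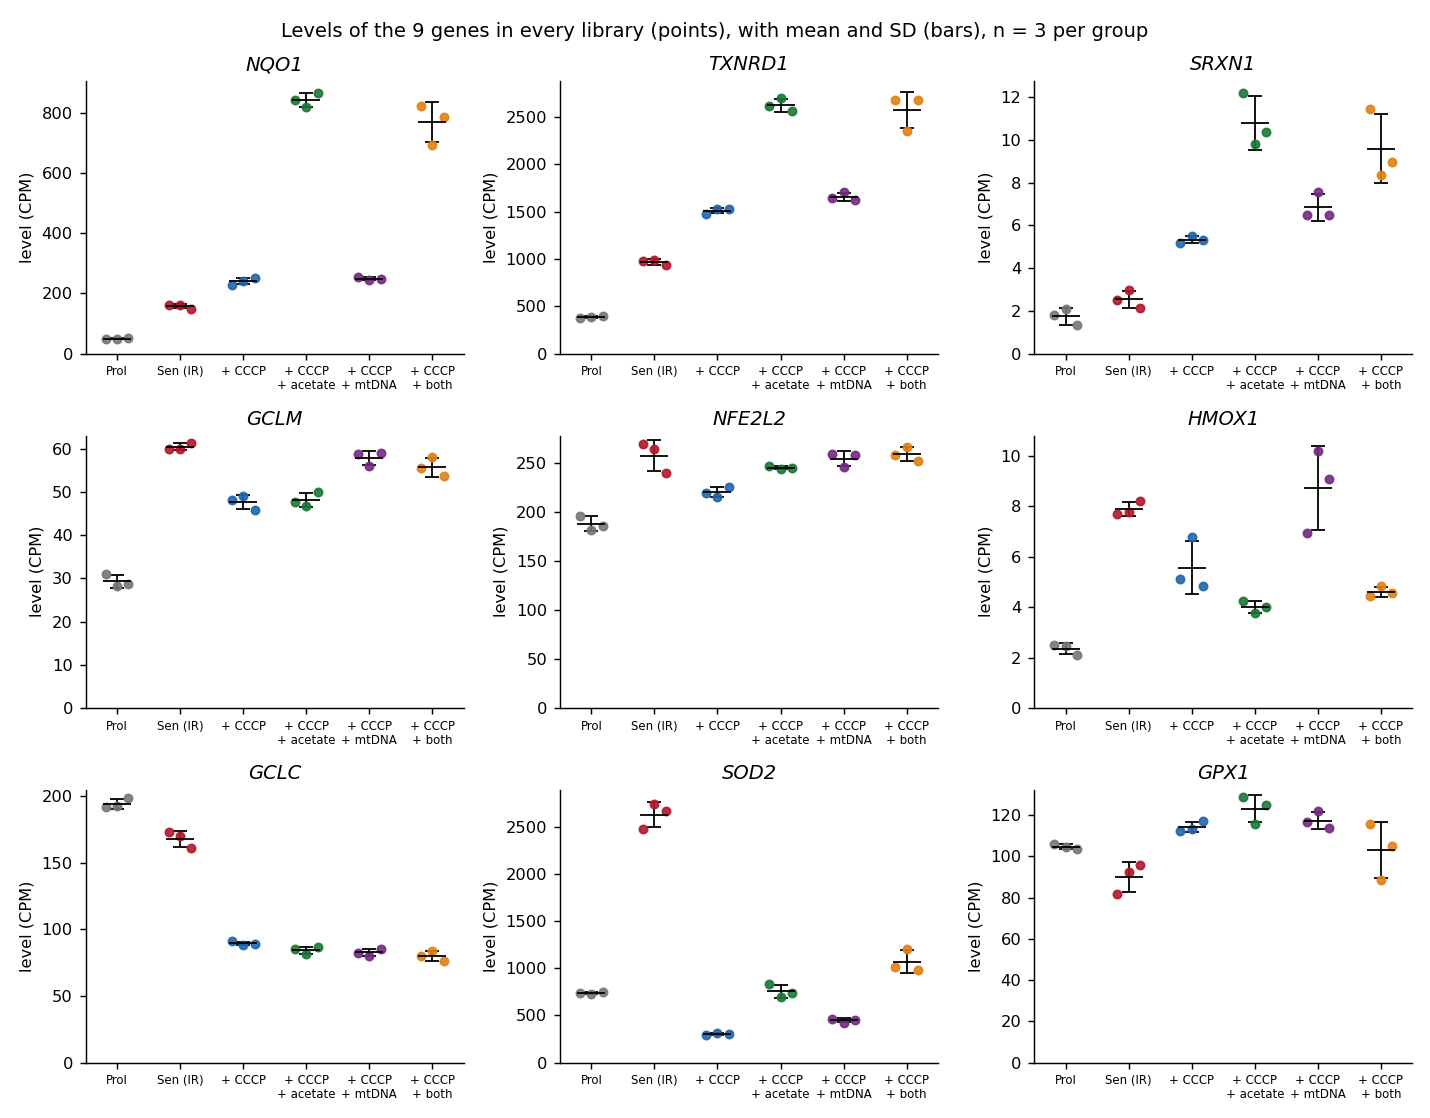
Levels of the 9 genes in CPM (linear axis from 0) in each of the 18 libraries, by group, with the mean and SD of 3 libraries as bars. NQO1, TXNRD1 and SRXN1 were highest in the 2 groups given acetate, SOD2 was highest in Sen (IR), HMOX1 was highest on average with mtDNA, and GCLC was highest in Prol.

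Irradiation asks how the antioxidant genes differ in senescent cells. In Sen (IR) over Prol, 7 of the 9 genes rose and 2 fell (edgeR, adjusted p under 0.05), where 56.7% of all genes tested passed in either direction, 26.7% higher and 29.9% lower. SOD2, HMOX1, NQO1, TXNRD1 and GCLM each at least doubled on the fitted scale, with folds of 3.56, 3.37, 3.20, 2.49 and 2.06. NFE2L2 rose 1.37-fold and SRXN1 1.48-fold, while GCLC and GPX1 fell to 0.865 and 0.859 of their Prol level. The median log2 fold change of the 9 was 1.04, against -0.01 over all genes tested.

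Levels within a gene are given in CPM, the count scaled to the TMM-adjusted library size. NFE2L2 measured 196, 182 and 186 CPM in the Prol libraries and 269, 264 and 239 CPM in Sen (IR). Every senescent library lay above every proliferating one, and the log2 fold change was 0.45 (SE 0.05, adjusted p = 4.20e-08).

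NQO1, which reduces quinones by a full pair of electrons and so keeps them from redox cycling, measured 49.9, 47.7 and 50.7 CPM in Prol and 163, 163 and 149 CPM in Sen (IR). The groups lay far apart relative to their spread, with a log2 fold change of 1.68 (SE 0.06, adjusted p = 8.92e-16). HMOX1, the inducible haem oxygenase, was scarce, at 2.5, 2.48 and 2.10 CPM in Prol and 7.70, 7.79 and 8.23 CPM in Sen (IR). Its groups did not overlap either, at a log2 fold change of 1.75 (SE 0.15, adjusted p = 1.67e-09).

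The 2 subunits of glutamate-cysteine ligase, which catalyses the rate-limiting step of glutathione synthesis, went opposite ways. GCLM, the modifier subunit, measured 31.1, 28.3 and 28.7 CPM in Prol and 60.0, 60.0 and 61.4 CPM in Sen (IR) (log2 fold change 1.04, SE 0.05, adjusted p = 1.89e-13). GCLC, the catalytic subunit, measured 192, 192 and 198 CPM in Prol and 173, 170 and 161 CPM in Sen (IR) (log2 fold change -0.21, SE 0.05, adjusted p = 4.27e-04). The 3 senescent libraries lay above Prol for GCLM and below it for GCLC.

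TXNRD1, the cytosolic thioredoxin reductase, measured 381, 389 and 398 CPM in Prol and 976, 995 and 932 CPM in Sen (IR), with no overlap (log2 fold change 1.31, SE 0.05, adjusted p = 3.62e-15). SRXN1, the sulfiredoxin that restores overoxidized peroxiredoxins, measured 1.80, 2.11 and 1.33 CPM in Prol and 2.51, 2.95 and 2.14 CPM in Sen (IR) (log2 fold change 0.56, SE 0.19, adjusted p = 0.0154). Its lowest senescent library was barely above its highest proliferating one, and the call was lost without Prol replicate 3 (0.36, adjusted p = 0.147) or Sen (IR) replicate 2 (0.44, adjusted p = 0.0819).

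SOD2 measured 740, 732 and 746 CPM in Prol and 2478, 2743 and 2671 CPM in Sen (IR), and its log2 fold change was 1.83 (SE 0.07, adjusted p = 4.56e-15). This was the largest log2 change of the 9 in this comparison. GPX1, a glutathione peroxidase that reduces hydrogen peroxide, measured 104 to 106 CPM in Prol and 82.0, 92.5 and 96.0 CPM in Sen (IR) (log2 fold change -0.22, SE 0.07, adjusted p = 0.0131). Its call was lost without Sen (IR) replicate 1 (-0.16, adjusted p = 0.0877). It was also lost with plain library sizes (-0.12, adjusted p = 0.192) and on log2(TPM + 1) (-0.14, adjusted p = 0.166, limma). Without Sen (IR) replicate 3, which stood apart, all 9 genes were still called, with SOD2 at 1.82 and NFE2L2 at 0.50.

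The genes split in senescent cells given CCCP to remove their mitochondria. No group received CCCP and kept its mitochondria, so exposure to CCCP and loss of mitochondria cannot be told apart. Whether the cells without CCCP received its vehicle is not stated. In Sen (IR) + CCCP over Sen (IR), all 9 genes passed the test, where 65.2% of all genes did, 34% higher and 31.3% lower: NQO1, TXNRD1, SRXN1 and GPX1 rose, and SOD2, GCLC, HMOX1, GCLM and NFE2L2 fell. SOD2 fell most, 8.63-fold. The direction of the small changes depended on the scaling. With plain library sizes, under which the median log2 change of all genes was 0.29 and not 0.03, 4 genes rose and 2 fell (GCLC and SOD2). On log2(TPM + 1) 5 rose and 2 fell. On these 2 scales 68.6% and 72.5% of all genes passed, 70.6% and 78.8% of them higher.

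SOD2 measured 297, 313 and 305 CPM in Sen (IR) + CCCP, so that every depleted library was below every Prol library as well as below Sen (IR). The log2 fold change was -3.11 (SE 0.08, adjusted p = 2.19e-18) and ranked 248th in size among the 16994 genes tested. It was between -3.15 and -3.06 with each library left out in turn, and -3.10 without Sen (IR) replicate 3.

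GCLC measured 90.8, 88.5 and 89.3 CPM after depletion, 1.88-fold below Sen (IR) (log2 fold change -0.91, SE 0.05, adjusted p = 1.61e-13). The libraries were close together and well below both earlier groups. GCLM measured 48.2, 49.1 and 45.8 CPM, below Sen (IR) on this scale (-0.34, SE 0.05, adjusted p = 2.43e-06), but it was above Sen (IR) by 0.08 on log2(TPM + 1) (adjusted p = 0.0971, limma). NFE2L2 measured 220, 216 and 226 CPM (-0.23, SE 0.05, adjusted p = 2.53e-04), while on log2(TPM + 1) it was higher by 0.20 (adjusted p = 1.22e-04, limma) and with plain library sizes by 0.03 (adjusted p = 0.476). Both of these values lay below the median of the genes on the same scale. That median was 0.42 on log2(TPM + 1), over genes with a mean of at least 1 TPM, and 0.29 with plain library sizes. The 0.08 of GCLM was also below the 0.42.

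NQO1 measured 229, 242 and 251 CPM and rose by 0.60 on the log2 scale (SE 0.06, adjusted p = 4.11e-09). TXNRD1 measured 1480, 1530 and 1524 CPM and rose by 0.64 (SE 0.05, adjusted p = 1.75e-10). For both genes each depleted library was above each Sen (IR) library. SRXN1 measured 5.16, 5.5 and 5.33 CPM, 2.11-fold above Sen (IR) (log2 fold change 1.08, SE 0.16, adjusted p = 3.00e-06), and the groups did not overlap. GPX1 measured 112, 113 and 117 CPM (0.34, SE 0.07, adjusted p = 2.43e-04). HMOX1 measured 5.13, 6.77 and 4.83 CPM (-0.49, SE 0.13, adjusted p = 0.00226), and its call was lost with plain library sizes (-0.23, adjusted p = 0.120).

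**Figure D2:**
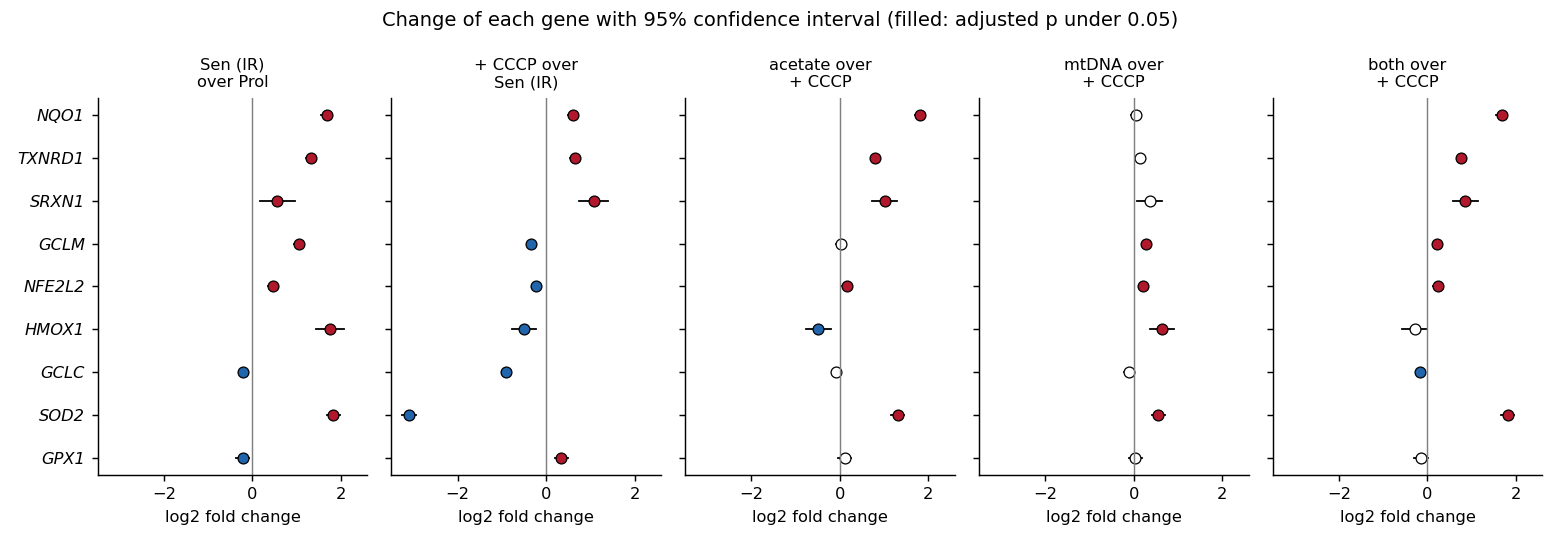
Log2 fold change of each gene in 5 comparisons (x axis, edgeR), with 95% confidence intervals as lines. Filled points passed an adjusted p of 0.05, red for higher and blue for lower. SOD2 stands out at -3.11 with CCCP, and the acetate panel separates NQO1, SOD2, SRXN1 and TXNRD1, at 0.80 to 1.81, from the rest. The last 3 panels share the Sen (IR) + CCCP libraries.

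Acetate, given to depleted cells to ask whether it stands in for a product of mitochondria, raised 5 of the 9 genes and lowered HMOX1, where 57.1% of all genes passed, 28.8% higher and 28.3% lower. NQO1 rose 3.50-fold, SOD2 2.48-fold, SRXN1 2.01-fold and TXNRD1 1.74-fold. NFE2L2 itself rose 1.11-fold, a change that was lost with plain library sizes (log2 fold change 0.03, adjusted p = 0.521) and on log2(TPM + 1) (0.06, adjusted p = 0.206, limma). With plain library sizes the median log2 change of all genes was -0.12 for acetate, -0.21 for the combination over Sen (IR) + CCCP and -0.13 for the combination over mtDNA. The comparisons of acetate, of mtDNA and of the combination with Sen (IR) + CCCP share those 3 libraries and are not independent of each other. With plain library sizes and on log2(TPM + 1) alike, 4 genes rose and 2 fell with acetate. On these 2 scales 58.6% and 57.2% of all genes passed, 37.1% and 39.5% of them higher.

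NQO1 measured 842, 821 and 865 CPM with acetate, against at most 251 CPM in any Sen (IR) + CCCP library. The log2 fold change was 1.81 (SE 0.06, adjusted p = 3.35e-16), and these libraries were also above those of Sen (IR) and Prol. TXNRD1 measured 2617, 2697 and 2563 CPM (0.80, SE 0.05, adjusted p = 9.31e-12). SRXN1 measured 12.2, 9.80 and 10.4 CPM (1.01, SE 0.13, adjusted p = 9.07e-07). For these genes the group with acetate and the combination formed the top of the order, and those neighbours did not differ past the threshold.

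The proliferation and senescence markers moved in the same comparison. MKI67 was at 28.9 to 32.4 CPM in Sen (IR) + CCCP and 2.73 to 3.57 CPM with acetate, LMNB1 at 11.8 to 14.6 and 2.86 to 2.94 CPM, and CDKN1A at 1066 to 1131 and 1774 to 1895 CPM. None of these ranges overlapped, and the part of this shift in the changes of NQO1, TXNRD1 and SRXN1 was not tested.

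SOD2 measured 835, 698 and 734 CPM with acetate (log2 fold change 1.31, SE 0.07, adjusted p = 8.82e-13). The group was above Sen (IR) + CCCP without overlap, did not differ past the threshold from Prol (0.03, adjusted p = 0.709), and was below Sen (IR) in every library. HMOX1 measured 4.25, 3.79 and 4.01 CPM (-0.49, SE 0.14, adjusted p = 0.00406). Leaving out Sen (IR) + CCCP replicate 2, the highest library of that group, ended the call (-0.30, adjusted p = 0.0847). GCLM at 46.8 to 50.1 CPM and GPX1 at 116 to 129 CPM overlapped the group without acetate, with 95% intervals of the log2 difference from -0.09 to 0.12 and from -0.04 to 0.26. GCLC at 81.1 to 86.4 CPM lay just below it, with an interval from -0.18 to 0.01. GCLC was called lower with plain library sizes (-0.21, adjusted p = 2.80e-04) and on log2(TPM + 1) (-0.18, adjusted p = 4.16e-04, limma). It was also called lower with only the groups compared (-0.10, adjusted p = 0.0238).

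Transfected mtDNA stands for mtDNA released into the cytosol. In mtDNA over Sen (IR) + CCCP, 4 of the 9 genes rose, where 18.1% of all genes passed, 10.7% higher and 7.4% lower. These were HMOX1 (1.56-fold), SOD2 (1.47-fold), GCLM (1.21-fold) and NFE2L2 (1.16-fold). All 4 were also called higher with plain library sizes and on log2(TPM + 1). On each of these 2 scales 19.5% of all genes passed, 35.7% and 34% of them higher. In the reported fit none of the 9 was called lower, although GCLC was on those 2 scales, at -0.18 and -0.19. With TMM, GCLC was also called lower with at least 10 counts in every library (-0.13, adjusted p = 0.0367). The same held with only the groups compared (-0.13, adjusted p = 0.0240). Whether the cells without mtDNA received the transfection reagent is not stated. An effect of mtDNA and an effect of the transfection itself therefore cannot be told apart here.

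HMOX1 measured 6.94, 10.2 and 9.08 CPM with mtDNA (log2 fold change 0.64, SE 0.13, adjusted p = 0.00131). All were above the 4.83 to 6.77 CPM of Sen (IR) + CCCP, the nearest by a small margin. This group had the highest mean HMOX1 of the 6, at 8.74 ± 1.66 CPM (SD, n = 3), which did not differ past the threshold from Sen (IR) at 7.91 ± 0.285 CPM (0.15, adjusted p = 0.317). SOD2 measured 467, 425 and 449 CPM (0.55, SE 0.07, adjusted p = 5.26e-06), above depleted cells and below Prol in every library.

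GCLM measured 58.9, 56.0 and 58.9 CPM (log2 fold change 0.28, SE 0.05, adjusted p = 2.99e-04), above every Sen (IR) + CCCP library. NFE2L2 measured 260, 246 and 258 CPM (0.21, SE 0.05, adjusted p = 0.00344). NQO1 at 245 to 255 CPM overlapped the untransfected group, at a log2 difference of 0.05 with an interval from -0.07 to 0.17. TXNRD1 at 1626 to 1706 CPM and SRXN1 at 6.47 to 7.58 CPM lay above the untransfected libraries without passing the threshold (0.13, adjusted p = 0.0643, and 0.36, adjusted p = 0.0816). With only the groups compared in the fit, both passed and GCLC was called lower (-0.13, adjusted p = 0.0240). That made 7 of the 9 genes, where 24.7% of all genes passed in that fit. TXNRD1 also passed with the DESeq2 Wald test (0.14, adjusted p = 0.0214).

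In the combination, 6 of the 9 genes rose over Sen (IR) + CCCP and GCLC fell, where 61.7% of all genes passed, 30.3% higher and 31.4% lower. SOD2 rose 3.51-fold and NQO1 3.19-fold, followed by SRXN1 (1.81-fold), TXNRD1 (1.70-fold), NFE2L2 (1.17-fold) and GCLM (1.17-fold). With plain library sizes 4 genes rose and 3 fell, NFE2L2 (0.05, adjusted p = 0.273) and GCLM (0.04, adjusted p = 0.456) no longer passing. On log2(TPM + 1) 5 rose and 3 fell. On these 2 scales 64.4% and 63.6% of all genes passed, 32.3% and 36% of them higher.

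SOD2 measured 1018, 1209 and 986 CPM in the combination, above each single treatment in every library (log2 fold change over Sen (IR) + CCCP 1.81, SE 0.07, adjusted p = 5.57e-15). Over acetate alone it rose by 0.50 (SE 0.07, adjusted p = 4.28e-05) and over mtDNA alone by 1.26 (SE 0.07, adjusted p = 1.76e-12). The level was still below Sen (IR), by 1.30 on the log2 scale (adjusted p = 3.96e-13). Without combination replicate 2, its highest library, the rise over acetate alone was 0.41 (adjusted p = 4.44e-05).

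Over acetate alone 3 of the 9 genes differed, where 12.6% of all genes passed, 6.57% higher and 6% lower: SOD2, GCLM (0.21, SE 0.05, adjusted p = 0.00664) and, downwards, GPX1 (-0.26, SE 0.07, adjusted p = 0.0211). GCLM measured 55.5, 58.1 and 53.6 CPM in the combination, all above the libraries with acetate alone. GPX1 measured 116, 88.5 and 105 CPM, and the call was lost without combination replicate 2, the lowest library (-0.16, adjusted p = 0.108), and without acetate replicate 1 or replicate 3. With plain library sizes 2 of the 9 rose and 2 fell, NQO1 being the other one lower (-0.19, adjusted p = 0.0276). On that scale 13.3% of all genes passed, 29.1% of them higher.

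Over mtDNA alone 4 of the 9 rose and 2 fell, where 57.4% of all genes passed, 27.4% higher and 29.9% lower. With plain library sizes and on log2(TPM + 1) 4 rose and 4 fell, GCLM and GCLC being added to those lower. On these 2 scales 58.8% and 58.3% of all genes passed, 36.2% and 41.1% of them higher. NQO1 rose by 1.63 (SE 0.06, adjusted p = 1.56e-15), TXNRD1 by 0.63 (SE 0.05, adjusted p = 4.32e-10), SRXN1 by 0.50 (SE 0.13, adjusted p = 0.00297) and SOD2 as given above. HMOX1 fell by 0.93 (SE 0.14, adjusted p = 4.53e-06), from 6.94 to 10.2 CPM with mtDNA alone down to 4.44, 4.84 and 4.55 CPM with acetate added. GPX1 fell by 0.19 (SE 0.07, adjusted p = 0.0309), with overlapping groups and a call that was lost in 5 of the 6 fits that left out 1 library (-0.07 without combination replicate 2, adjusted p = 0.317). Without that replicate 5 of the 9 were called, the others as before.

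The change with acetate in the presence of mtDNA minus that in its absence was tested directly. None of the 9 genes passed (edgeR), where 0.659% of all genes did, 0.0765% with a positive and 0.583% with a negative difference, and none passed with DESeq2. At an unadjusted p under 0.05 there were 5 with edgeR and 3 with DESeq2, where 11.4% of all genes tested reached that with edgeR and 5.21% with DESeq2, which called 284 of all genes. These 5 were NQO1 (-0.18), HMOX1 (-0.44), TXNRD1 (-0.16), SRXN1 (-0.51) and GPX1 (-0.30), with adjusted p from 0.235 to 0.382. For SOD2 the difference was -0.05, with a 95% interval from -0.25 to 0.16.

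**Figure D3:**
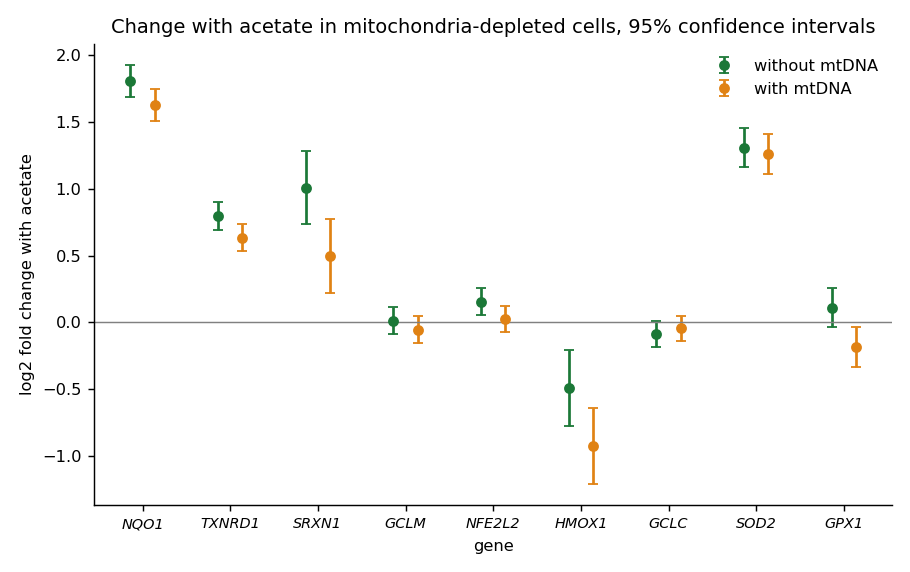
Log2 fold change of each gene with acetate (y axis) in depleted cells without mtDNA (acetate over Sen (IR) + CCCP, green) and with it (combination over mtDNA, orange), with 95% confidence intervals from edgeR. For NQO1 the values were 1.81 and 1.63, for SOD2 1.31 and 1.26, and for HMOX1 -0.49 and -0.93.

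The order of the 6 groups differed between genes. For NQO1, TXNRD1 and SRXN1 it was the same: acetate, combination, mtDNA, Sen (IR) + CCCP, Sen (IR), Prol, with no difference past the threshold between acetate and combination or between mtDNA and Sen (IR) + CCCP. For SOD2 it was Sen (IR), combination, acetate, Prol, mtDNA, Sen (IR) + CCCP, and only acetate and Prol did not differ among neighbours. NFE2L2 had 4 groups from 245 to 259 CPM among which no neighbours differed, with Sen (IR) + CCCP and Prol below. Of the 15 pairs of groups, 8 have not been given above, and in these the share of all genes that passed was 69.2%, 66.5%, 70.7% and 66.8% for CCCP, acetate, mtDNA and the combination over Prol, 65.9%, 67.5% and 66.9% for acetate, mtDNA and the combination over Sen (IR), and 61.3% for mtDNA over acetate. Against those shares, SOD2 differed in 14 pairs, NQO1, TXNRD1 and SRXN1 in 13 of the 15, HMOX1 and GCLM in 12, GCLC in 10, and NFE2L2 and GPX1 in 9.

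The ratio of the GCLM to the GCLC transcript, which no scaling of libraries can alter, was 0.236 ± 0.0150 (SD, n = 3) in TPM in Prol and 0.563 ± 0.0284 in Sen (IR). It was 0.832 ± 0.0330 in Sen (IR) + CCCP, 0.893 ± 0.0177 with acetate, 1.09 ± 0.0183 with mtDNA and 1.09 ± 0.00908 in the combination. Single libraries ran from 0.226 to 0.253 in Prol and from 1.08 to 1.11 in the 2 groups with mtDNA, which overlapped each other and no other group. Between Sen (IR) + CCCP (0.801 to 0.867) and acetate (0.873 to 0.905) the gap was smaller than the spread within either group. No test was made on the ratio.

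**Figure D4:**
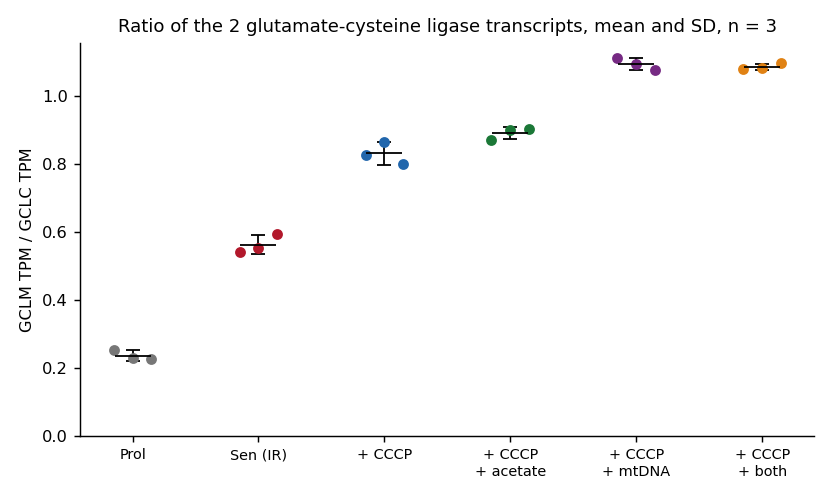
GCLM TPM divided by GCLC TPM (y axis, linear from 0) in each library, with the mean and SD of 3 libraries per group. The ratio was 0.236 in Prol, 0.563 in Sen (IR), 0.832 and 0.893 in depleted cells without and with acetate, and 1.09 in the groups given mtDNA.

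Of 36 other NRF2 targets, 35 were tested, GPX2 being under the filter. In Sen (IR) over Prol 20 rose and 6 fell, with OSGIN1 (log2 fold change 2.00, adjusted p = 2.38e-10), MGST1 (1.39, adjusted p = 1.22e-14) and the cystine transporter SLC7A11 (1.33, adjusted p = 6.86e-13) higher and CHAC1, which degrades glutathione, lower (-1.32, adjusted p = 3.49e-11). With CCCP 12 rose and 17 fell, but 17 rose and 11 fell with plain library sizes and 21 rose and 6 fell on log2(TPM + 1). Of the list's calls on these 2 scales 60.7% and 77.8% were higher, against 70.6% and 78.8% of the calls over all genes. SLC3A2, the partner chain of SLC7A11, rose by 1.96 (adjusted p = 1.68e-17) and SLC7A11 by 1.70 (adjusted p = 5.14e-15), while BLVRA fell by 1.40 (adjusted p = 6.06e-12) and GSTM3 by 1.28 (adjusted p = 1.43e-14).

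With acetate 21 of the 35 rose and 7 fell (19 and 10 with plain library sizes, where 37.1% of all genes called were higher). The median log2 fold change of the 35 was 0.45, against 0.01 over all genes tested. SLC7A11 was at 508 ± 30.8 CPM (SD, n = 3) in Sen (IR) + CCCP and 932 ± 17.8 CPM with acetate. CHAC1 (1.73, adjusted p = 4.80e-14) and the efflux pump ABCC3 (1.15, adjusted p = 1.58e-09) rose most. OSGIN1 (-1.53, adjusted p = 1.71e-10) and MGST1 (-1.12, adjusted p = 3.35e-13) fell, OSGIN1 from 14.2 ± 0.691 to 4.88 ± 0.358 CPM (SD, n = 3). The list thus held targets that moved with NQO1 and targets that moved against it.

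Of the 35, 74.3% passed with irradiation, 82.9% with CCCP and 80% with acetate, against 56.7%, 65.2% and 57.1% of all genes tested. With mtDNA 6 of the 35 rose and 2 fell (22.9%, near the 18.1% of all genes). CHAC1 (1.13, adjusted p = 1.17e-09), SESN2 (0.92, adjusted p = 4.02e-09) and SLC3A2 (0.56, adjusted p = 6.22e-08) led, with ABCB6 lower (-0.82, adjusted p = 1.23e-05). On log2(TPM + 1) 5 rose and 3 fell, where 34% of all genes called were higher. CHAC1, SESN2 and the SLC7A11 and SLC3A2 pair are also well-known targets of ATF4. In the combination over Sen (IR) + CCCP 21 rose and 8 fell, 82.9% against 61.7% of all genes. Among them CHAC1 was higher (2.17, adjusted p = 1.81e-15) and OSGIN1 lower (-1.75, adjusted p = 4.28e-11). With plain library sizes 19 rose and 13 fell, where 32.3% of all genes called were higher.

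Among 16 regulators and partners of NRF2, 8 rose and 5 fell in Sen (IR) over Prol. BACH1, a repressor that competes with NRF2 for the same sites, was at 329 to 346 CPM in Prol and 129 to 137 CPM in Sen (IR) (log2 fold change -1.34, adjusted p = 4.96e-16). SQSTM1, the autophagy adaptor p62 that can sequester KEAP1, was at 188 to 202 CPM in Prol and 598 to 662 CPM in Sen (IR) (1.72, adjusted p = 3.63e-17). Neither group overlapped the other in these genes.

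Of the 16, 81.2% passed with irradiation, 75% with CCCP, 75% with acetate, 62.5% with mtDNA and 87.5% in the combination, against 56.7%, 65.2%, 57.1%, 18.1% and 61.7% of all genes tested.

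KEAP1 was at 26.8 ± 0.535 CPM (SD, n = 3) in Prol, 34.7 ± 2.20 in Sen (IR) and 60.7 ± 0.0927 in Sen (IR) + CCCP. With acetate it was at 34.6 ± 0.0805 and in the combination at 32.4 ± 2.97, while with mtDNA it was at 60.5 ± 2.18 CPM. It rose with CCCP (0.81, SE 0.06, adjusted p = 4.26e-11) and fell with acetate (-0.81, SE 0.06, adjusted p = 6.07e-11), so that the depleted groups without acetate stood apart from the other 4 groups. With CCCP 8 regulators rose and 4 fell (11 and 3 with plain library sizes, where 70.6% of all genes called were higher). NFE2L3 was lower (-1.54, adjusted p = 4.66e-13) and CREBBP higher (1.34, adjusted p = 8.78e-14). With acetate 5 rose and 7 fell, NFE2L3 rising by 1.62 (adjusted p = 3.65e-13), the small MAF gene MAFF by 0.81 (adjusted p = 1.16e-10), and DPP3, a KEAP1-binding peptidase, falling by 1.02 (adjusted p = 2.15e-10). With mtDNA 8 rose and 2 fell, MAFF rising by 0.71 (adjusted p = 1.36e-08) and SQSTM1 by 0.27 (adjusted p = 3.60e-04). In the combination over Sen (IR) + CCCP 7 rose and 7 fell, MAFG rising by 0.90 (adjusted p = 9.94e-13). With plain library sizes 5 rose and 8 fell, where 32.3% of all genes called were higher.

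Of 20 other antioxidant enzymes, 10 rose and 4 fell in Sen (IR) over Prol, among them PRDX2 higher (0.59, adjusted p = 3.00e-08) and GPX4, which reduces lipid peroxides, lower (-0.86, adjusted p = 2.18e-10). With CCCP 4 rose and 14 fell, including GLRX (-1.26, adjusted p = 1.10e-15) and PRDX4 (-1.20, adjusted p = 2.11e-11). The split was 6 and 12 with plain library sizes and 7 and 10 on log2(TPM + 1), where 70.6% and 78.8% of all genes called were higher. The list's median log2 fold change with CCCP was -0.64, against 0.03 over all genes tested. With acetate 4 rose and 9 fell, with GLRX5 (0.62, adjusted p = 2.04e-08) and SOD3 (2.76, adjusted p = 4.85e-09) higher. MSRA was lower, at 11.3 ± 0.467 CPM (SD, n = 3) in Sen (IR) + CCCP and 7.36 ± 0.518 CPM with acetate. SOD3, the extracellular superoxide dismutase, was scarce throughout, at 0.202 to 0.472 CPM in Sen (IR) + CCCP and 1.92 to 2.38 CPM with acetate. PRDX3, a peroxiredoxin of the mitochondrial matrix, was at 183 ± 2.21 CPM (SD, n = 3) in Sen (IR) + CCCP and 182 ± 3.89 with mtDNA. It was at 121 ± 4.24 with acetate and 117 ± 2.06 CPM in the combination, where it fell by 0.65 (adjusted p = 6.81e-11). Of the 20, 70% passed with irradiation, 90% with CCCP, 65% with acetate and 65% in the combination, against 56.7%, 65.2%, 57.1% and 61.7% of all genes tested. With mtDNA 2 rose and none fell (10%, against 18.1% of all genes), PRDX5 by 0.19 (adjusted p = 0.0382) and GLRX by 0.21 (adjusted p = 0.00260). The PRDX5 call was lost in 4 of 6 fits that left out 1 library and with plain library sizes. On that scale 1 rose and 1 fell, where 35.7% of all genes called were higher.

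**Figure D5:**
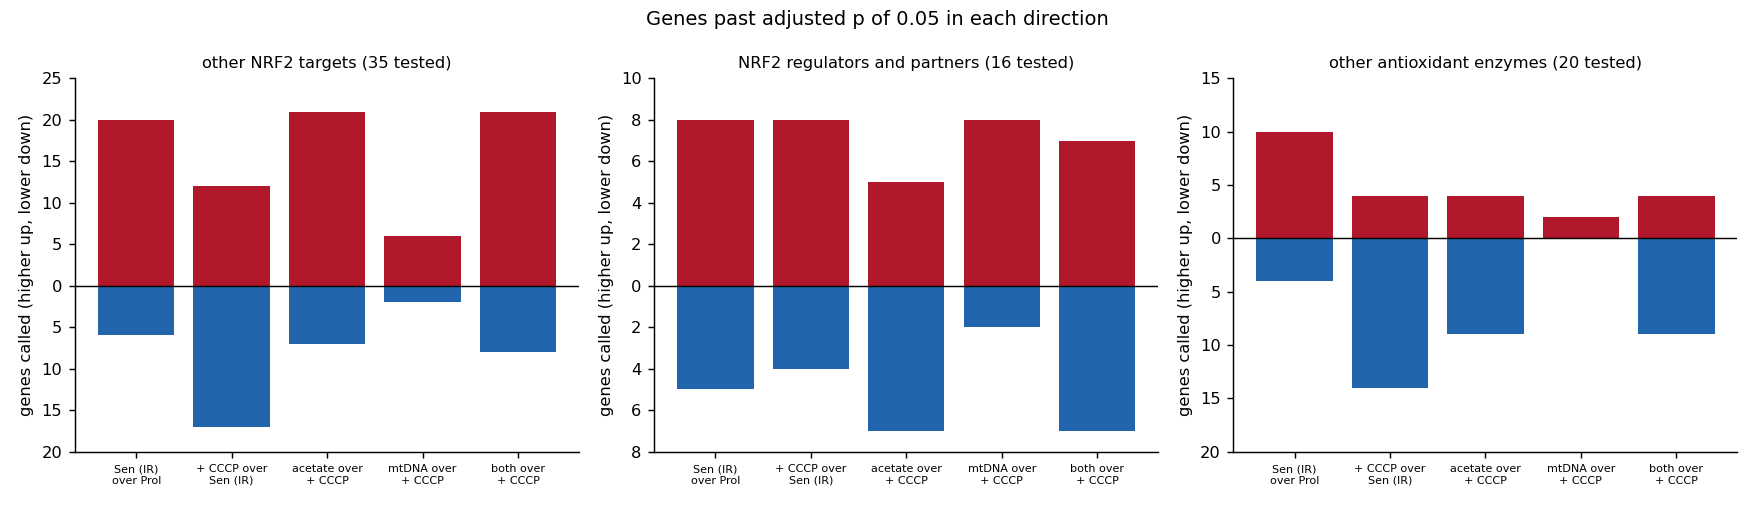
Number of genes past an adjusted p of 0.05 (edgeR), higher above and lower below the zero line, in the 3 further lists and 5 comparisons. Among other NRF2 targets 21 rose and 7 fell with acetate, and among other antioxidant enzymes 4 rose and 14 fell with CCCP. The splits with CCCP shift upwards with plain library sizes, to 17 and 11 and to 6 and 12, where 70.6% of all genes called were higher.

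Genes whose log2 CPM ran most like 8 of the 9 over the 18 libraries are given as a description, since the libraries share the 6 groups. NQO1 ran most like F2RL2 (Pearson r = 0.992), CDKN1A (0.991) and GDF15 (0.989), of which CDKN1A encodes the cell-cycle inhibitor p21. TXNRD1 ran most like TFAP2C (0.993), LIG4 (0.991) and PLEKHB2 (0.990), and SRXN1 most like LEPROTL1 (0.983). GCLC ran most like the matrix genes CTHRC1 (0.996), LAMA4 (0.994) and COL1A1 (0.994). COL1A1 is among the fibroblast markers whose sum was lower in the CCCP groups. The part of that shift in the level of GCLC was not tested. SOD2 ran most like PCDHGA4 (0.981), GINM1 (0.976) and OLR1 (0.976), GCLM most like TNFAIP6 (0.967), NFE2L2 most like SEC63 (0.972), and GPX1 most like the ferritin light chain gene FTL (0.935). Among the 9, NQO1 with TXNRD1 (0.976) and TXNRD1 with SRXN1 (0.953) were most alike, followed by NQO1 with SRXN1 (0.937) and NFE2L2 with GCLM (0.930), whereas GCLC with SRXN1 (-0.941) was most opposed.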

How the data were processed

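The study sequenced polyadenylated RNA of 18 IMR90 libraries as paired reads of 150 bases. Per the labels and methods, the authors used Trimmomatic 0.36 for trimming, STAR 2.5.2b for alignment to GRCh38, and featureCounts (Subread 1.5.2) to count reads with a unique alignment over each gene's exons. The authors deposited these as raw counts, and deposited TPM for the same genes. The methods state that strand-specific libraries were counted by strand, but not whether these were such libraries, and the annotation release is not given in the sources used here. Every column was mapped to its sample by label, and 0 columns were left out.

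Counts were tested with edgeR 4.0.16 in R 4.3.3 (quasi-likelihood test, TMM, filterByExpr by group), in 1 model of 6 group means with no replicate block. P-values are two-sided and adjusted over all 16994 genes tested by Benjamini-Hochberg, with a threshold of 0.05. CPM use TMM-scaled library sizes. The common coefficient of variation was 0.0644. Library totals ranged from 24624886 to 46224280 (median 29620505.5), and 485 rows without a symbol held 0.0166% of the counts. They had identifiers and stayed in the fit.

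The 9 genes, the lists and the comparisons were chosen with earlier results of these data known. Named genes are the 9, the label checks, up to 4 genes of each list with the largest change past the threshold per comparison, and the 3 genes most correlated with each of the 9. KEAP1 outside its largest changes and PRDX3 outside the combination were added after their values were seen. Some genes named by this rule are not reported here. Alternatives were DESeq2 1.42.0 (size factors, Wald test), other filters, a fit without the mtDNA genes, fits of just the groups compared, a replicate block, each library left out, and, added after seeing the data, plain library sizes and limma 3.58.1 with trend on log2(TPM + 1), a pseudocount of 1. Coordinates and overlaps come from GENCODE v44, SOD2 being matched by symbol. No 2 libraries held identical values.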

Additional observations from a re-analysis of the deposited data

Results flagged for a closer look

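In 4 genes of the lists the change with acetate differed with and without mtDNA (interaction term, edgeR, adjusted p under 0.05). These were 3 of the 35 other NRF2 targets (8.57%) and 1 of the 16 regulators and partners (6.25%), where 0.659% of all genes tested passed. None of the 20 other antioxidant enzymes did. All 4 had a smaller or more negative change in the presence of mtDNA. The 3 other NRF2 targets, CHAC1, SESN2 and SLC3A2, are those named above as also targets of ATF4. For CHAC1 the difference on the log2 scale was -0.70 (adjusted p = 0.00249), with means of 17.7 CPM in Sen (IR) + CCCP, 59.1 with acetate, 38.9 with mtDNA and 79.7 in the combination. For SESN2 it was -0.60 (adjusted p = 0.00408), with means of 40.1, 44.4, 75.9 and 55.4 CPM in the same order. Both calls were kept in all 12 fits that left out 1 library. For SLC3A2 it was -0.32 (adjusted p = 0.0395) and for MAFF -0.38 (adjusted p = 0.0324), and these calls were kept in only 1 and 2 of the 12. None of the 9 genes passed this test, and groups of 3 are too small for the test of single outlying libraries.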

How the results depend on the processing

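Under the alternatives, 125 of 126 counts of called genes stayed within 1.5 times the value reported. The exception was mtDNA over Sen (IR) + CCCP, with 7 called and not 4 when only the groups compared were fitted. With each library left out, the counts ranged from 8 to 9 for irradiation, 5 to 6 for acetate, 6 to 8 for the combination, 2 to 4 over acetate alone and 5 to 6 over mtDNA alone, and were 9, 4 and 0 throughout for CCCP, mtDNA and the interaction. Of 1134 values for single genes, 1064 kept direction and call, 27 lost the call, 24 gained one and 19 changed sign.

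The changes of sign were of values that had not passed the test, apart from NFE2L2 and GCLM with CCCP. In that comparison the median log2 change was itself 0.29 over all genes with plain library sizes. It was 0.42 on log2(TPM + 1), over genes with a mean of at least 1 TPM. With plain library sizes the values were 0.035 for NFE2L2 with CCCP, -0.11 for GCLM and -0.013 for GPX1 with acetate, -0.019 for NQO1 and -0.028 for GPX1 with mtDNA, and -0.086 for NFE2L2 in the combination over mtDNA. On log2(TPM + 1) they were 0.20 for NFE2L2 and 0.082 for GCLM with CCCP, -0.083 for GCLM with acetate, -0.023 for NQO1 and -0.034 for GPX1 with mtDNA, and -0.035 for NFE2L2 in the combination over mtDNA. With only the groups compared, GCLM with acetate was -0.00085. For TXNRD1 in the combination over acetate the value was 0.0010 with DESeq2 size factors, 0.0043 with the DESeq2 Wald test, and from -0.059 to 0.031 with a library left out. Leaving out a library also gave -0.064 to 0.0040 for GCLC in the combination over mtDNA and -0.14 to 0.024 for SOD2 in the interaction. The cause was not tested. GCLC in the combination over Sen (IR) + CCCP lost its call without combination replicate 3 (-0.10, adjusted p = 0.0938).

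The replicate numbers did not pair the samples (correlations of deviations -0.0821 to 0.0917 over 45 pairs, 0 above 0.1). The fit with the replicate block called 9, 9, 6, 4, 7, 3, 6 and 0 of the 9 genes in the 8 comparisons, as without it. Low counts limit HMOX1 and SRXN1, whose standard errors were 0.13 to 0.19 in the 8 comparisons. All intervals and tests cover these libraries only.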
